A study of Mus musculus with 8 samples.

Results

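The immune checkpoint and regulatory T cell genes are 10 genes chosen by name from the 54532 genes counted in whole mouse lung. They are the PD-1 receptor and its ligands (Pdcd1, Cd274 and Pdcd1lg2), the inhibitory receptors Ctla4, Lag3, Havcr2 and Tigit, the costimulatory receptors Cd28 and Icos, and Foxp3. All 10 passed the filter on low counts. Poly(A) RNA of the lung was sequenced from 4 Control mice and 4 mice given TTI-101, with a library for each mouse, at 14 weeks of age. TTI-101 is a small-molecule inhibitor of the transcription factor STAT3, and treated mice received it for 4 weeks from 10 weeks of age. All 8 mice were CC-LR, a model of early lung adenocarcinoma on a C57BL/6 background in which a Cre recombinase driven from the club cell secretory protein (CCSP) locus switches on a K-ras G12D allele (LSL-K-ras) in airway epithelium. The Control mice therefore carried the oncogene and could form tumors, and there was no lung without it. The study used both sexes, but the sex of the sequenced mice is not given in the sources used here. Nor are their route and dose, or what the Control mice received. Per the study's methods, lungs frozen for RNA came from mice that had been lavaged and then perfused with saline. The extract is the whole organ, so the 10 genes were read against a background of epithelium, and for each of them fewer cells of a type and less RNA per cell cannot be told apart.

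T cells need a signal through CD28 beside that of the T cell receptor. CTLA-4 competes with CD28 for the same ligands, and PD-1, LAG-3, TIM-3 (encoded by Havcr2) and TIGIT restrain T cells that have already been activated. Regulatory T cells depend on FOXP3, carry many of the same receptors and limit responses against tumors. In the lung, PD-L1 (encoded by Cd274) is made by myeloid and structural cells as well as by lymphocytes, and interferon-gamma is its best known inducer.

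Expression is given as CPM, a gene's count divided by its library's TMM-normalized size. The counts summed to between 16075855 and 26873509 per library. Control mouse 4 stood apart on the first principal component of log2 CPM (45.2% of the variance), at 101 against -39.3 to 17.9 for the others. Its mitochondrial share of counts was 5.56%, against 2.01% to 2.85%. It also had the lowest level of the Cd3 genes, and its part in the results was not tested beyond leaving it out.

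No checkpoint or regulatory T cell gene differed between the groups at an adjusted p under 0.05 in edgeR's quasi-likelihood test, and 0% of the 17138 genes tested did. At an unadjusted p under 0.05 the test called 1 of the 10, Foxp3, where it called 6.61% of all genes in either direction and 3.02% as higher in TTI-101. In CPM, Control and TTI-101 overlapped for all 10 genes, while 2.96% of all genes did not overlap. Log2 fold changes were above 0 for 7 of the 10 and below 0 for 3, with a median of 0.04 against 0.00 over all genes. The count of 1 rested on single mice: without TTI-101 mouse 2, 0 of the 10 genes were called unadjusted, and without Control mouse 1, 3 were called (Foxp3, Cd274 and Cd28), while the genes called over the whole table numbered 2498 and 2393 in those fits against 1132 with all mice. Each p-value sets the difference between groups against the variation among these 8 mice, which edgeR estimates with information shared across genes.

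**Figure D1:**
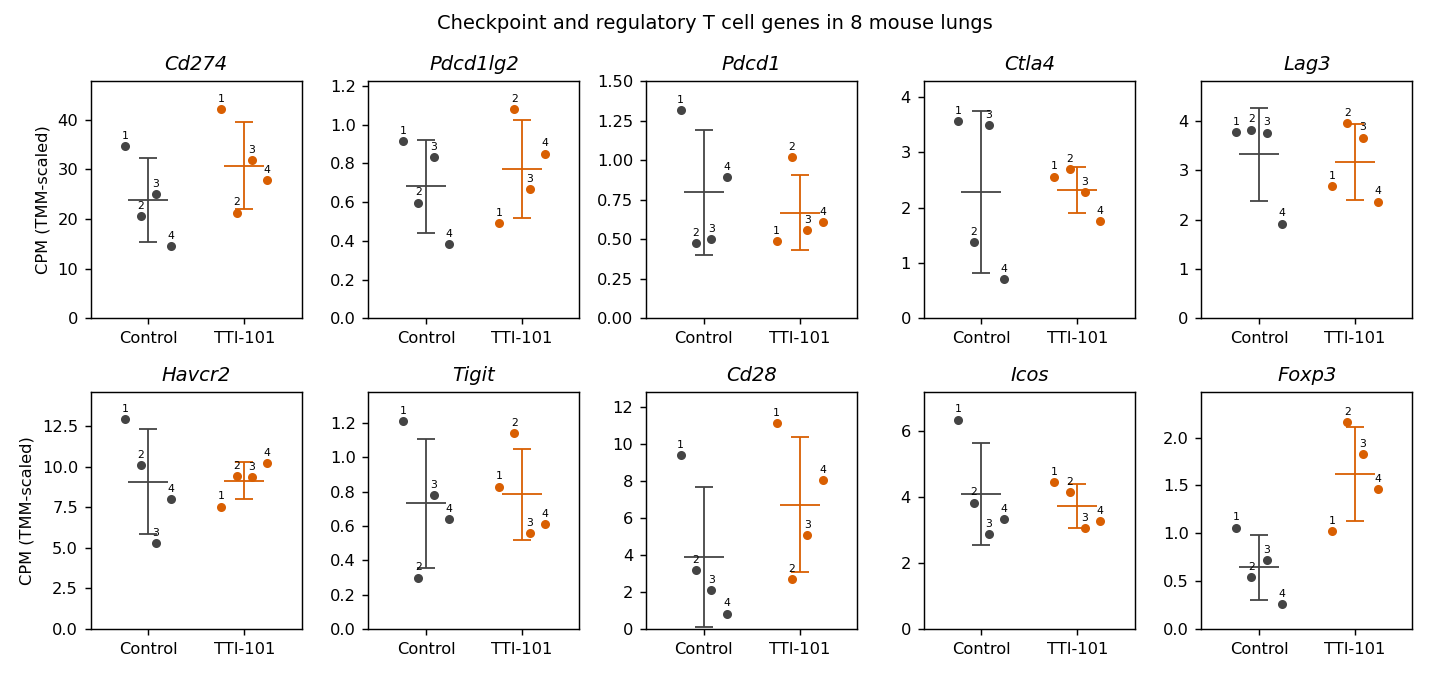
CPM of the 10 genes in each lung, with Control in grey and TTI-101 in orange, the mouse number beside each point and the group mean ± SD as lines. The groups overlapped in every panel, and for Foxp3, TTI-101 mice 2, 3 and 4 lay above all 4 Control mice.

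Per kilobase of gene length, which allows levels of different genes to be compared, Cd274 was the most abundant of the 10 at 7.53 CPM per kb over the 8 libraries, followed by Havcr2 at 3.34 CPM per kb. Both lay above the next gene in all 8 libraries. Lag3 (1.54), Icos (1.14), Ctla4 (0.989), Cd28 (0.865) and Tigit (0.824 CPM per kb) came next and were not separated from their neighbours in every library. The lowest were Pdcd1lg2 (0.442), Pdcd1 (0.38) and Foxp3 (0.284 CPM per kb), and Pdcd1 exceeded Foxp3 in 4 of the 8 libraries.

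Foxp3, the lineage factor of regulatory T cells (ENSMUSG00000039521, GRCm38 chromosome X, 7579676 to 7595243, + strand), was counted 29, 9, 13 and 4 times in Control mice 1 to 4 and 27, 36, 33 and 24 times in TTI-101 mice 1 to 4. Scaled for depth, these were 1.06, 0.538, 0.721 and 0.256 CPM in Control and 1.02, 2.16, 1.83 and 1.46 CPM in TTI-101. TTI-101 mice 2, 3 and 4 were above every Control mouse, and TTI-101 mouse 1 was just below Control mouse 1, so the groups overlapped. The means were 0.645 ± 0.339 CPM (SD, n = 4) and 1.62 ± 0.493 CPM (SD, n = 4). The log2 fold change estimated by edgeR was 1.28 (SE 0.46, 95% interval 0.26 to 2.29), which is 2.42-fold. The unadjusted p was 0.0187 and the adjusted p 0.657 in edgeR's quasi-likelihood test. The exact permutation test of log2 CPM over the 70 assignments gave p = 0.0571 (two-sided), where the smallest possible is 0.0286.

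Few reads lie behind the Foxp3 values. Its lowest count of 4 has an exact 95% Poisson interval of 1.09 to 10.2, its highest of 36 one of 25.2 to 49.8, and such intervals cover counting error only. Counting alone would give a coefficient of variation of 27% in Control and 18.3% in TTI-101, and the observed ones were 52.5% and 30.4%. Without TTI-101 mouse 2 the log2 fold change was 1.12 (unadjusted p = 0.0529 in edgeR), and without Control mouse 4 it was 1.04 (unadjusted p = 0.0337 in edgeR). Foxp3 reached the level of the count filter in 2 Control and all 4 TTI-101 libraries. The gene shares its interval with Flicr, a non-coding RNA on the same strand (23 counts over the 8 libraries), and with Gm36995 on the opposite strand (51 counts), against 175 for Foxp3. Ccdc22, a protein-coding gene on the opposite strand, overlaps it as well and had 0 counts. Reads in shared stretches could have gone to another gene or been left uncounted, which was not tested. Whether counting used strand is not given in the sources used here.

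STAT proteins bind the palindrome TTCNNNGAA, called GAS, and interferon regulatory factors bind repeats built on GAAANNGAA. RefSeq promoter sequences (GRCm38.p6) were found for 7 of the 10 genes, with 8 start sites, and the 250 bases before each start were searched on both strands for these letters, which may share bases with each other. Of all 32851 such windows, 7.02% held the first and 7.13% the second. Of the 8 windows, 1 held the first, before the inner start of Foxp3, and those before Cd274 and the RefSeq start of Ctla4 held the second, read on the opposite strand. These are shown because TTI-101 acts on a STAT protein and because Foxp3 and Cd274 carry the comparisons of the text. Capitals mark the match, which is a description of letters and not a binding site. The Foxp3 stretch (chrX:7580233-7580482, + strand) lies inside the listed gene between exons of Foxp3 and within an exon of Flicr, with the match starting 139 bases before the start site. The Cd274 stretch (chr19:29367318-29367437, + strand) lies before the gene, overlaps an exon of Plgrkt on the other strand, and has its match 76 bases before the start. The Ctla4 stretch (chr1:60908775-60909024, + strand) lies inside the listed gene and in no annotated exon, with its match 166 bases before the start.
Foxp3: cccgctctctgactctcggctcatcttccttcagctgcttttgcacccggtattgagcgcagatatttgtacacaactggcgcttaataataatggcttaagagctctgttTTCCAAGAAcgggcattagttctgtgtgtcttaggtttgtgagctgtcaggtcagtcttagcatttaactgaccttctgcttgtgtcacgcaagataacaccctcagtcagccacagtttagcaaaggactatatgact
Cd274: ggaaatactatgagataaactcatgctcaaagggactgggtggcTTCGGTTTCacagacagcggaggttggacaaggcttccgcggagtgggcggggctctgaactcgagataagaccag
Ctla4: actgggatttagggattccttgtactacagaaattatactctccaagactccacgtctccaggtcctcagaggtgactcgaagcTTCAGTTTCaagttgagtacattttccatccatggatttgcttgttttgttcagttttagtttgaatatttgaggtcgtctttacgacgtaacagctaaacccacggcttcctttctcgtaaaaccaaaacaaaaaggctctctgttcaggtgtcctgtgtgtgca

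Among the ligands, Cd274, which encodes PD-L1 (ENSMUSG00000016496, chromosome 19, 29367455 to 29388095), was at 34.7, 20.6, 25.1 and 14.6 CPM in Control mice 1 to 4 and at 42.1, 21.3, 31.8 and 27.9 CPM in TTI-101 mice 1 to 4. Mouse 1 was the highest of each group and Control mouse 4 the lowest of all. Mean Cd274 was 23.8 ± 8.46 CPM in Control and 30.7 ± 8.71 CPM in TTI-101 (SD, n = 4 each), and its log2 fold change was 0.37 (SE 0.28, 95% interval -0.25 to 0.98, adjusted p = 0.702 in edgeR). Pdcd1lg2, which encodes PD-L2 and lies 22823 bases from Cd274, was at 0.917, 0.598, 0.832 and 0.384 CPM in Control and at 0.49, 1.08, 0.667 and 0.851 CPM in TTI-101. Its groups covered almost the same range, and the log2 fold change was 0.14 (SE 0.43, 95% interval -0.81 to 1.1, adjusted p = 0.934 in edgeR).

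Pdcd1, the gene of PD-1 itself (ENSMUSG00000026285, chromosome 1, 94038305 to 94052553), was at 1.32, 0.478, 0.499 and 0.895 CPM in Control and 0.49, 1.02, 0.556 and 0.608 CPM in TTI-101. Control mouse 1 and TTI-101 mouse 2 were high and the other 6 mice lay between 0.478 and 0.895 CPM. The log2 fold change was -0.29 (SE 0.47, 95% interval -1.32 to 0.74, adjusted p = 0.858 in edgeR), an interval that holds changes of more than 1 log2 unit downward. At 8 to 36 counts per library, counting error would give a coefficient of variation of 24.4% in Control, against 49.8% observed.

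Ctla4, the competitor of CD28 (ENSMUSG00000026011, chromosome 1, 60887000 to 60915832), was at 3.56, 1.37, 3.5 and 0.704 CPM in Control and 2.56, 2.7, 2.28 and 1.76 CPM in TTI-101. The Control mice split into a high and a low pair and all TTI-101 mice fell between the pairs. The means were alike, 2.28 ± 1.46 and 2.33 ± 0.415 CPM (SD, n = 4 each), and the log2 fold change was 0.02 (SE 0.47, 95% interval -1.04 to 1.07, adjusted p = 0.996 in edgeR). The coefficient of variation was 64.1% in Control and 17.8% in TTI-101, against 14.4% and 14.8% from counting alone, and the difference in spread was not tested.

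Lag3, a receptor for MHC class II, was at 3.78, 3.83, 3.77 and 1.92 CPM in Control and 2.68, 3.96, 3.67 and 2.37 CPM in TTI-101. Of the Control mice, 1, 2 and 3 were nearly equal and mouse 4 was low. Havcr2, which encodes TIM-3 and is also expressed by myeloid cells, was at 12.9, 10.1, 5.27 and 8.0 CPM in Control and 7.54, 9.43, 9.34 and 10.2 CPM in TTI-101, all TTI-101 mice lying inside the Control range. Tigit, the receptor for the poliovirus receptor family, was at 1.21, 0.299, 0.777 and 0.64 CPM in Control and 0.83, 1.14, 0.556 and 0.608 CPM in TTI-101, again inside the Control range. Log2 fold changes were -0.07 (SE 0.31, 95% interval -0.77 to 0.62) for Lag3, 0.00 (SE 0.27, 95% interval -0.6 to 0.6) for Havcr2 and 0.07 (SE 0.48, 95% interval -0.98 to 1.13) for Tigit, with adjusted p-values of 0.956, 0.998 and 0.974 in edgeR.

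Cd28, the costimulatory receptor of naive T cells (ENSMUSG00000026012, chromosome 1, 60716800 to 60773359), was the most variable of the 10. It was at 9.39, 3.17, 2.11 and 0.831 CPM in Control and 11.1, 2.7, 5.06 and 8.03 CPM in TTI-101, a 13.3-fold range over the 8 mice. As for Cd274, mouse 1 was the highest of each group and Control mouse 4 the lowest. Its log2 fold change was 0.78 (SE 0.64, 95% interval -0.65 to 2.2, adjusted p = 0.723 in edgeR). Icos, an inducible receptor of the CD28 family, was at 6.35, 3.83, 2.88 and 3.33 CPM in Control and 4.45, 4.14, 3.06 and 3.28 CPM in TTI-101, with Control mouse 1 apart from the others. Its log2 fold change was -0.14 (SE 0.30, 95% interval -0.81 to 0.54, adjusted p = 0.904 in edgeR). Cd28, Ctla4 and Icos lie in this order within 283521 bases of chromosome 1 on the same strand. Over the 8 libraries, log2 CPM of Cd28 had a Pearson r of 0.57 with Ctla4 and 0.51 with Icos, and Cd274 one of 0.23 with its neighbour Pdcd1lg2, against 0.92 between Cd28 and Cd274 on separate chromosomes.

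Most of the 10 genes are expressed by T cells, so each was also read beside the genes of the T cell receptor complex. The mean log2 CPM of Cd3d, Cd3e and Cd3g, its signaling subunits, was 3.44, 2.40, 2.71 and 1.69 in Control mice 1 to 4 and 3.57, 2.53, 3.33 and 3.14 in TTI-101 mice 1 to 4. Mouse 1 was the highest of each group, and Control mouse 1 and TTI-101 mouse 1 also had the deepest libraries. Cd4 had a log2 fold change of 0.54 (SE 0.35, adjusted p = 0.670 in edgeR) and Cd8a one of 0.98 (SE 0.54, adjusted p = 0.657 in edgeR). Of 17 T cell genes tested, all had log2 fold changes above 0, with a median of 0.57 (0.99 without Control mouse 1), and 1 had an unadjusted p under 0.05.

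Cd274 and Cd28 moved with T cell genes from mouse to mouse. Over the 8 libraries, log2 CPM of Cd274 correlated with the mean of the 17 T cell genes at a Pearson r of 0.96 (exact permutation p = 0.000223, 0.0201 after Benjamini-Hochberg adjustment over 90 relations) and a Spearman rho of 0.95 (exact permutation p = 0.00114, adjusted 0.103). Leaving out Control mouse 4 and TTI-101 mouse 1, the farthest from the median T cell level, r was 0.93, and it was 0.96 on deviations from the group means. For Cd28, r was 0.94 (exact permutation p = 0.00166, adjusted 0.0374) and rho 0.86 (exact permutation p = 0.0107, adjusted 0.12), with r at 0.82 without the same 2 libraries and 0.92 on deviations from group means. For Foxp3, r was 0.72 (exact permutation p = 0.0398, adjusted 0.224) and rho 0.60 (exact permutation p = 0.132, adjusted 0.66), with r falling to 0.51 without the 2 libraries. Ctla4 had an r of 0.69 (exact permutation p = 0.0529, adjusted 0.264) and a rho of 0.45 (exact permutation p = 0.267, adjusted 0.924), with r at 0.21 without the 2 libraries. The relation of Pdcd1 to the T cell genes had an r of -0.13, that of Lag3 0.34, of Havcr2 0.29, of Tigit 0.26, of Icos 0.36 and of Pdcd1lg2 0.36.

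Cd274 and Cd28 also correlated with genes of other cell types, and not of leukocytes only. The 90 relations were those of the 10 genes with the mean of each of 9 cell type lists, and 6 had an adjusted Pearson p under 0.05. These were Cd274 and Cd28 with T cell and with NK cell genes (r of 0.92 and 0.94 for NK cells), Cd28 with B cell genes (r of 0.90) and Cd274 with neutrophil genes (r of 0.88). Without the 2 libraries farthest from the median of each list, r with NK cell genes was 0.77 for Cd274 and 0.84 for Cd28. It was 0.73 for Cd28 with B cell genes and 0.71 for Cd274 with neutrophil genes. Cd274 with B cell genes had an r of 0.88 (adjusted exact permutation p = 0.0539), and Cd28 with epithelial genes one of -0.88 (adjusted exact permutation p = 0.0539). With endothelial genes, r was 0.79 for Cd274 and 0.83 for Cd28 (adjusted exact permutation p = 0.149 and 0.0813). Cd274 with epithelial genes had an r of -0.72 (adjusted exact permutation p = 0.228). Foxp3, at an r of 0.72 with T cell genes, was at 0.78 with B cell genes (adjusted exact permutation p = 0.164). With endothelial genes it was at 0.73 (adjusted exact permutation p = 0.223). Without the 2 libraries farthest from each list's median, these were 0.51 for T cell, 0.71 for B cell and 0.05 for endothelial genes. By adjusted Spearman p, the smallest of the 90 was 0.103.

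**Figure D2:**
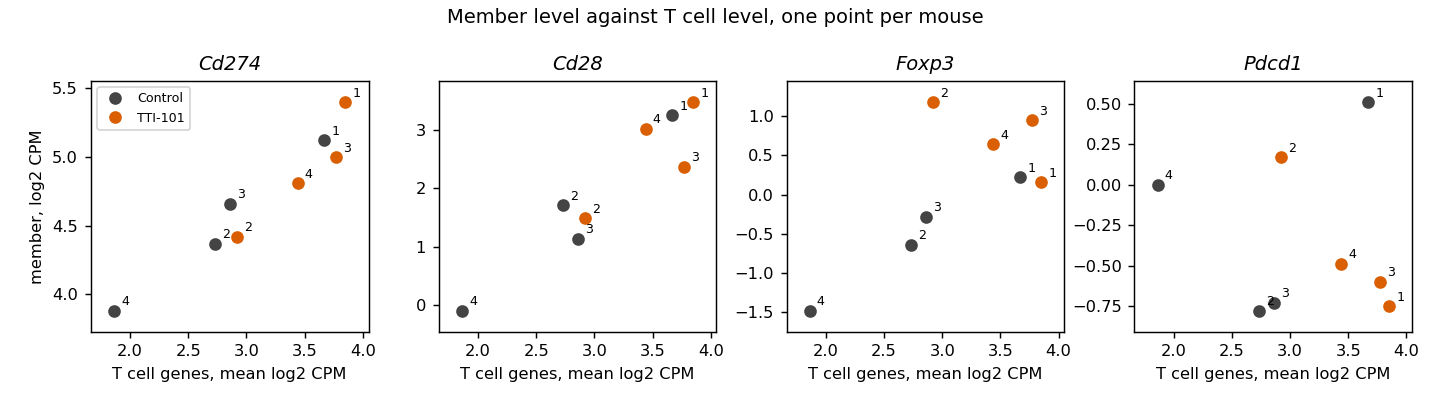
Log2 CPM of Cd274, Cd28, Foxp3 and Pdcd1 (vertical axes) against the mean log2 CPM of 17 T cell genes (horizontal axes), 1 point per mouse with its number, Control in grey and TTI-101 in orange. Cd274 (r of 0.96) and Cd28 (r of 0.94) lie close to a rising line, TTI-101 mouse 2 lies far above the other mice of its T cell level for Foxp3, and Pdcd1 has no such line (r of -0.13).

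With the Cd3 level as a covariate in edgeR's quasi-likelihood test, the log2 fold change of Cd274 was -0.04 (SE 0.16, unadjusted p = 0.789) in place of 0.37, and that of Cd28 was 0.05 (SE 0.34, unadjusted p = 0.89) in place of 0.78. Foxp3 was at 1.14 (SE 0.48, unadjusted p = 0.0348, adjusted p = 1) in the same fit, close to its value without the covariate. It was the 1 gene of the 10 with an unadjusted p under 0.05 there, where 1.57% of all genes were, and 0 genes passed an adjusted p of 0.05. The other log2 fold changes with the covariate were -0.27 for Ctla4, -0.30 for Icos, -0.31 for Pdcd1, -0.17 for Lag3, -0.09 for Havcr2, -0.04 for Tigit and 0.07 for Pdcd1lg2.

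**Figure D3:**
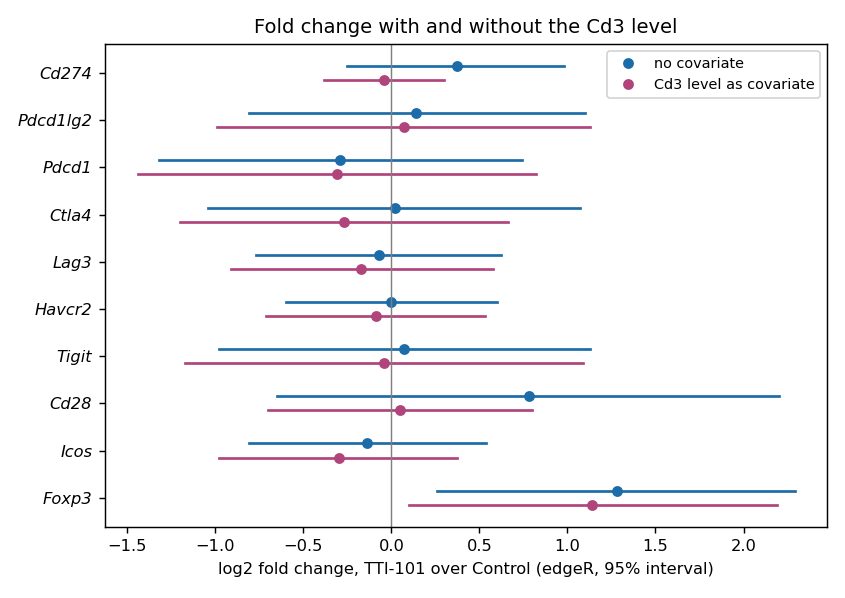
Log2 fold change of TTI-101 over Control for each gene (points) with its 95% interval (lines), from edgeR without a covariate in blue and with the Cd3 level as a covariate in purple. Cd274 moves from 0.37 to -0.04 and Cd28 from 0.78 to 0.05, while Foxp3 stays above 0 at 1.28 and 1.14.

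The Cd3 mean was itself 0.58 log2 units higher in TTI-101 (3.14 against 2.56), so a gene with equal CPM in the groups lies at about that much below 0 on a scale of log2 CPM minus the Cd3 mean. On this scale 8 of the 10 genes were lower in TTI-101 and 2, Foxp3 and Cd28, were higher, where 91.4% of all genes tested were lower. Foxp3 relative to Cd3 was at -3.22, -3.05, -2.99 and -3.17 in Control mice 1 to 4, and at -3.40, -1.35, -2.38 and -2.49 in TTI-101 mice 1 to 4. The Control values rest on 29, 9, 13 and 4 counts, and counting alone would give Foxp3 a coefficient of variation of 27% in Control. Their closeness (SD 0.11 log2 units) therefore cannot be read as a stable Control level. TTI-101 mice 2, 3 and 4 lay above all Control values and mouse 1 below them. The difference was 0.70 log2 units (exact permutation test, two-sided p = 0.143), 0.35 without TTI-101 mouse 2 and 0.34 relative to Cd3e alone (exact permutation p = 0.543). Icos was lower by a difference of -0.66 (exact permutation p = 0.143), Pdcd1 by -0.75 (exact permutation p = 0.257), Lag3 by -0.63 (exact permutation p = 0.2) and Cd274 by -0.19 (exact permutation p = 0.143), or by -0.55 relative to Cd3e alone (exact permutation p = 0.0857). With all 8 mice, none of the 10 differences had an exact permutation p under 0.05. Without TTI-101 mouse 1, the only TTI-101 mouse below the Control values, the Foxp3 difference was 1.03 (exact permutation p = 0.0286). This p is the smallest that the remaining mice allow, since every TTI-101 mouse left lay above all Control mice. The fit was picked from those leaving out each mouse in turn for all 10 genes.

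**Figure D4:**
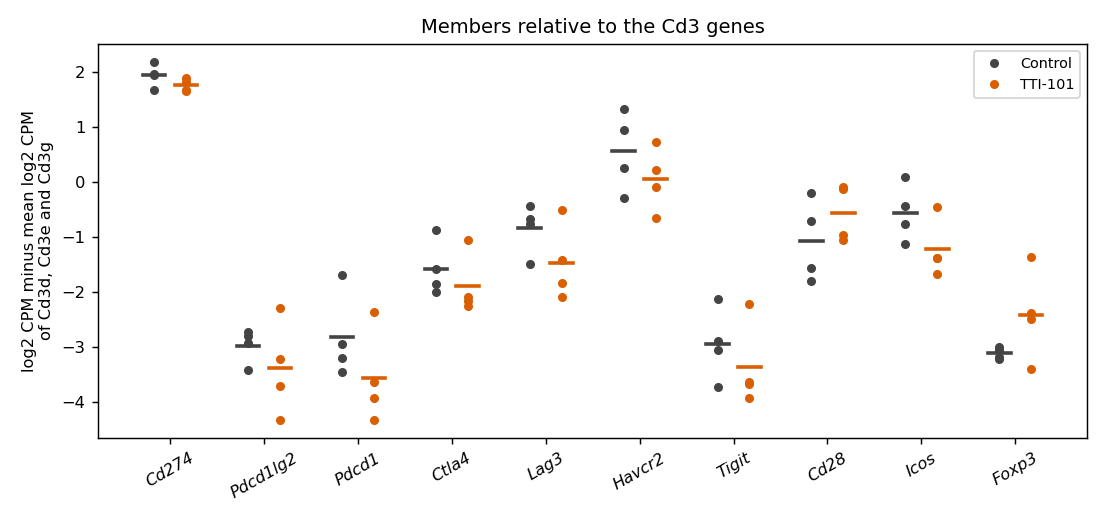
Log2 CPM of each gene minus the mean log2 CPM of Cd3d, Cd3e and Cd3g, 1 point per mouse, with the group means as bars, Control in grey and TTI-101 in orange. The 4 Control values of Foxp3 lie between -3.22 and -2.99, on 4 to 29 counts, and the TTI-101 values between -3.40 and -1.35.

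The genes nearest in pattern differed among the 10. Over the 8 libraries, the log2 CPM of Cd274 was closest to those of Trbc1 (r of 0.990) and Trbc2 (r of 0.989), the constant regions of the T cell receptor beta chain. Cd28 was closest to Trim21 (0.990) and Mylk (0.988), Foxp3 to Tom1 (0.979) and Scarb1 (0.959), and Pdcd1 to Slc35g1 (0.969) and Col6a5 (0.941). The nearest genes were Gm15964 (0.960) and Cyp4v3 (0.949) for Ctla4, Fkbp1b (0.965) and Alkbh4 (0.961) for Lag3, and Trim34b (0.926) and Pdgfc (0.917) for Havcr2. They were Gpr55 (0.961) and C330013E15Rik (0.945) for Tigit, Tnfrsf11b (0.949) and Ftx (0.931) for Icos, and Cpne7 (0.933) and Gm26664 (0.931) for Pdcd1lg2. Each is the highest of 17138 correlations over 8 points, so the values describe these libraries.

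Other genes of the same pathways were read from 7 lists, in which 0 genes had an adjusted p under 0.05 in edgeR. Of 11 further inhibitory receptors, 8 had log2 fold changes above 0 and 3 below, with a median of 0.63, and 3 were called at an unadjusted p under 0.05, all higher in TTI-101. Without TTI-101 mouse 1 the median was 0.29, and it was 0.38, 0.39 and 0.40 without Control mouse 4, TTI-101 mouse 3 and TTI-101 mouse 4. The 3 called were Vsir, Btla and Klrg1. Vsir, which encodes the VISTA receptor, was at 0.68 (unadjusted p = 0.0129 in edgeR). Btla, a receptor abundant on B cells, was at 0.95 (unadjusted p = 0.0326 in edgeR), and Klrg1, of effector T and NK cells, at 0.91 (unadjusted p = 0.0482 in edgeR). Klrg1 was higher in all 4 TTI-101 mice, 2.01 to 2.34 CPM, than in any Control mouse, 0.538 to 1.91 CPM, while 2.96% of all genes did not overlap. It was counted only 52, 9, 26 and 12 times in Control mice 1 to 4 and 59, 39, 42 and 33 times in TTI-101 mice 1 to 4. Vsir was at 89.4, 66.2, 72.0 and 46.4 CPM in Control and 119, 76.3, 140 and 105 CPM in TTI-101, where mouse 2 overlapped the Control mice. Cd5, a T cell surface inhibitor and the 1 other named receptor, had a log2 fold change of 0.77 (unadjusted p = 0.173 in edgeR).

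Of 15 tested checkpoint ligands and enzymes, 6 were above 0 and 9 below, with a median of -0.03, and 1 was called unadjusted. This was H2-T23, the mouse Qa-1 ligand of the NKG2A receptor, at 0.49 (unadjusted p = 0.0362 in edgeR), with 234, 186, 213 and 149 CPM in Control and 288, 274, 344 and 194 CPM in TTI-101. Lgals9, a ligand of TIM-3, had a log2 fold change of 0.53 (unadjusted p = 0.0713 in edgeR), and the TIGIT ligands Pvr and Nectin2 had -0.22 and -0.30. Of 10 costimulatory receptors, 8 were above 0 with a median of 0.48 (0.73 without Control mouse 1), and Slamf1 was called at 0.82 (unadjusted p = 0.0367 in edgeR). Cd27 and Cd2 had log2 fold changes of 0.74 and 0.56. Cd40lg, which encodes the CD40 ligand but was kept in this list, had 0.71. Of 7 tested costimulatory ligands, 4 were above 0, with a median of 0.32 (0.16 without Control mouse 4) and 0 called unadjusted. Those nearest to the threshold were Cd40 at 0.54, Tnfsf14 at 0.74, Icosl, the ICOS ligand, at 0.33 and Cd80, a ligand shared by CD28 and CTLA-4, at -0.37. Cd40 encodes the receptor of the CD40 ligand but was kept in the list of ligands.

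The regulatory T cell list did not move as one. Of its 17 tested genes, 12 had log2 fold changes above 0 and 5 below, with a median of 0.24 (0.46 without Control mouse 1), and 2 in each direction were called unadjusted. Lrrc32, which presents latent TGF-beta on regulatory T cells and platelets and is also made by endothelium, was at 0.48 (unadjusted p = 0.0291 in edgeR), and Klrg1 was the other higher gene. Areg, which encodes the epithelial growth factor amphiregulin and is also made by epithelium, was at -1.23 (unadjusted p = 0.0285 in edgeR), and Itgae, the integrin of tissue-resident T cells and some dendritic cells, at -0.53 (unadjusted p = 0.0365 in edgeR). The other 13 tested genes of the list, given in full and added to the text after their values were seen, each had an unadjusted p above 0.05 in edgeR. Those with log2 fold changes above 0 were Izumo1r (1.07), Batf (0.57), Ikzf4 (0.48), Tnfrsf4 (0.48), Prdm1 (0.42), Il1rl1 (0.35), Ebi3 (0.24), Tgfb1 (0.24), Nrp1 (0.19) and Il2ra (0.17). Those below 0 were Ikzf2 (-0.49), Ccr4 (-0.25) and Tnfrsf18 (-0.17). Il10, Ccr8 and Gpr83 did not pass the count filter. Il10 was counted 4, 0, 0 and 3 times in Control mice 1 to 4 and 3, 4, 0 and 0 times in TTI-101 mice 1 to 4. In the same order, Ccr8 was counted 7, 9, 5 and 0 times in Control and 15, 12, 2 and 7 times in TTI-101. Gpr83 was counted 5, 1, 0 and 0 times in Control and 3, 4, 12 and 14 times in TTI-101.

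Of 16 tested genes of T cell exhaustion and effector state, 11 were above 0 and 5 below, with a median of 0.34, and 2 were called unadjusted, both higher. Nr4a1, an immediate early factor of T cell receptor signaling that many other cells also induce, was at 47.6, 77.2, 113 and 45.8 CPM in Control and 96.5, 121, 205 and 170 CPM in TTI-101, a log2 fold change of 1.06 (unadjusted p = 0.00774 in edgeR). TTI-101 mouse 1 was below Control mouse 3, and the other TTI-101 mice were above all Control mice. Irf4, a factor of activated T and B cells, had 0.85 (unadjusted p = 0.011 in edgeR). Batf, its partner, had 0.57 and Id2 had -0.35 (unadjusted p = 0.0512 and 0.0528 in edgeR). Of 11 tested interferon-gamma response genes, 9 were above 0, with a median of 0.26. The 1 called unadjusted was lower, Cxcl9, a chemokine for activated T cells, at -2.00 (unadjusted p = 0.047 in edgeR). Its values were 10.5, 0.837, 0.555 and 1.79 CPM in Control and 1.21, 1.26, 0.723 and 0.243 CPM in TTI-101, with Control mouse 1 far above the other 7 mice. Gbp4, Ifngr1 and Irf8 had log2 fold changes of 0.90, 0.37 and 0.33.

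**Figure D5:**
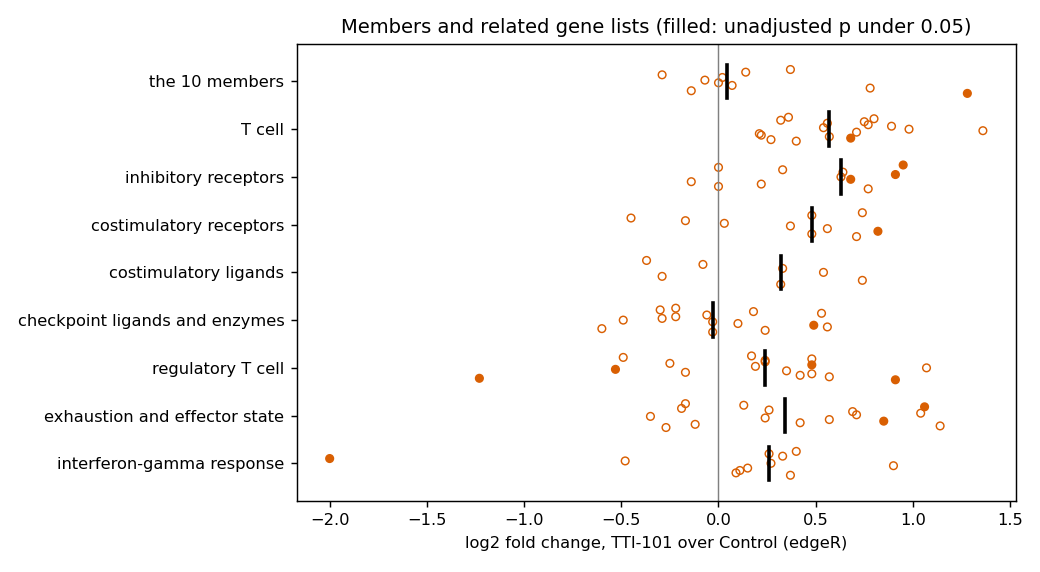
Log2 fold change of TTI-101 over Control for the 10 genes and for each tested gene of 8 related lists (circles, filled at an unadjusted p under 0.05), with the list median as a black bar. The 10 genes have a median of 0.04, the 17 T cell genes 0.57 and the 11 further inhibitory receptors 0.63.

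Genes of other cell types also differed in level between the groups, and their part in the values above was not tested. All 10 B cell genes had log2 fold changes above 0 and an unadjusted p under 0.05, with a median of 1.12 and a summed level of 124 to 345 CPM in Control and 293 to 603 CPM in TTI-101. The T cell list summed to 80.1 to 228 CPM in Control and 146 to 260 CPM in TTI-101, with all 17 genes detected in every library. The 8 NK cell genes had a median of 0.72 and the 6 endothelial genes one of 0.58, each with all genes above 0 and 1 called unadjusted, and the endothelial sums were 987 to 2580 CPM in Control and 2200 to 3770 CPM in TTI-101. Epithelial genes went both ways, with 2 above 0, 5 below and a median of -0.46. Their sums were 48500 to 88400 CPM in Control and 35200 to 67700 CPM in TTI-101. Macrophage and monocyte genes had a median of 0.16, with 6 above 0 and 4 below. Dendritic cell genes went both ways, with 4 above 0, 4 below, a median of 0.05, and Ccr7 at 1.21 (unadjusted p = 0.00839 in edgeR) and Xcr1 at -0.80 (unadjusted p = 0.0156 in edgeR), both named after their values were seen. Neutrophil genes were at a median of 0.83, and the 5 tested red blood cell genes at 2.50, with sums of 58.5 to 264 CPM in Control and 205 to 1590 CPM in TTI-101. Single libraries moved several of these medians: without Control mouse 4 that of NK cells was 0.44, of neutrophils 0.52 and of epithelium -0.20, without TTI-101 mouse 4 those of neutrophils and epithelium were 0.48 and -0.27, and without TTI-101 mouse 2 that of epithelium was -0.77. Without Control mouse 1 that of neutrophils was 1.35.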

How the data were processed

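The authors deposited whole-number read counts per gene, without normalization, for 8 lungs. The sequencing provider prepared poly(A)-selected, stranded, paired-end libraries and ran its own pipeline. The submitters' processing notes name STAR, DESeq2 and the mm10 build, and their versions, the counting tool, its strand setting and the annotation are not given in the sources used here. Counts were compared in R 4.3.3 with edgeR 4.0.16 (filterByExpr with a minimum count of 10, TMM, robust quasi-likelihood F-tests, Benjamini-Hochberg adjustment over 17138 genes). DESeq2 1.42.0 and limma 3.58.1 (voom) were alternatives. Log2 CPM used a prior count of 2. The Cd3 covariate was the mean log2 CPM of Cd3d, Cd3e and Cd3g. Single genes were also compared by two-sided exact permutation over 70 assignments, and correlations over 40320 permutations. The fits were run on simulated counts with large changes planted in genes drawn at random. That run does not show how well small changes at low counts are detected.

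The named genes are the 10 members, up to 4 tested genes of each pathway list with the smallest unadjusted p, Cd3d, Cd3e, Cd3g, Cd4 and Cd8a, and the 2 genes nearest in pattern to each member. The remaining regulatory T cell genes, Ccr7 and Xcr1 fall outside this rule and were added after their values were seen. The 9 cell type and 7 pathway lists hold 170 genes, and some genes stand in more than 1 list. The members and lists were chosen with earlier results of these data known. Alternatives were other tests, scalings, filters and prior counts, a replicate block, the Cd3 covariate, Cd3e or the T cell receptor constant genes as reference, and each library left out in turn.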

Additional observations from a re-analysis of the deposited data

Results flagged for a closer look

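Within groups of 4 mice, 72 sets of values were searched for a mouse far from the others by Dixon's test at the 95% level, and 4 exceeded it, where chance alone gives about 3.6. Lag3 in Control mouse 4 was at 1.92 CPM against 3.77 to 3.83 in the other Control mice, a gap of 0.972 of the whole range. Ctla4 relative to the Cd3 genes in TTI-101 mouse 2 was at -1.04 log2 units against -2.24 to -2.08, a gap of 0.868 of the range. The summed further inhibitory receptors in Control mouse 1 were at 253 CPM against 164 to 174, a gap of 0.883 of the range. The summed dendritic cell genes in TTI-101 mouse 2 were at 156 CPM against 205 to 213, a gap of 0.853 of the range.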

How the results depend on the processing

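Of 484 values under an alternative, 446 counted as the same, 22 changed sign and 16 moved. For fold changes of the 10 genes, the same meant an equal sign and no new adjusted p under 0.05. For counts of genes it meant a value within a set ratio, and for Cd3-relative differences and list medians one within the pooled SD. Unadjusted p-values of these were not part of the rule. Foxp3 without TTI-101 mouse 2 counted as the same, though its unadjusted p went from 0.0187 to 0.0529 in edgeR. With at least 10 counts in every library, 0 of the 10 genes were called at an unadjusted p under 0.05, since Foxp3, Pdcd1, Pdcd1lg2 and Tigit were no longer tested, and leaving out 1 library gave 0 to 3. The 3 without Control mouse 1 were Cd274 (0.61), Foxp3 (1.65) and Cd28 (1.72). All genes called unadjusted numbered 1132, 1689 with DESeq2, 1849 without a filter, 269 with the Cd3 covariate and 422 to 2498 without 1 library. At an adjusted p under 0.05, DESeq2 called 4 genes and leaving out 1 library gave 0 to 1, with 0 members throughout. With the Cd3 covariate, Cd274 (-0.04), Ctla4 (-0.27), Havcr2 (-0.09) and Tigit (-0.04) changed sign. Without 1 library, log2 fold changes ranged from -0.27 to 0.32 for Ctla4, -0.19 to 0.23 for Havcr2, -0.27 to 0.16 for Icos, -0.25 to 0.04 for Lag3, -0.55 to 0.09 for Pdcd1, -0.05 to 0.33 for Pdcd1lg2, -0.17 to 0.45 for Tigit, 0.18 to 0.61 for Cd274, 0.42 to 1.72 for Cd28 and 1.04 to 1.65 for Foxp3. List medians ranged from 0.46 to 0.99 for T cell, 0.93 to 1.51 for B cell, 0.44 to 1.05 for NK cell, -0.10 to 0.33 for macrophage and monocyte, -0.07 to 0.19 for dendritic cell, 0.48 to 1.35 for neutrophil, -0.77 to -0.20 for epithelium, 0.40 to 0.71 for endothelium, 0.29 to 0.83 for inhibitory receptor, 0.40 to 0.73 for costimulatory receptor, 0.16 to 0.44 for costimulatory ligand, 0.24 to 0.46 for regulatory T cell, 0.23 to 0.48 for exhaustion and 0.15 to 0.40 for interferon-gamma genes. Correlations of same-numbered deviations between the groups were 0.39, 0.08, 0.16 and 0.07, and 4 of 8 samples correlated best with their own number. The labels give numbers but name no pairs, so the main test took none. Whether same-numbered mice belong together cannot be told from these values. A replicate block gave 1298 genes unadjusted, 1 of the 10 genes, and a log2 fold change of 1.34 for Foxp3 (unadjusted p = 0.0353 in edgeR). With the block, Cd274 was at 0.39 (unadjusted p = 0.0582 in edgeR, against 0.212 without it). Apart from the filter and the covariate, the cause of these shifts was not tested. Foxp3, Pdcd1, Pdcd1lg2 and Tigit had 4 to 36 counts per library, which limits what could be detected.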
